A study of Mus musculus with 6 samples.

Results

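The 10 genes described here encode the oxygen sensors of the hypoxia response, the transcription factors that these sensors control and known targets of those factors. They were 10 of the 53084 genes counted in muscle of mice with and without *Tarsl2*, a gene for a threonyl-tRNA synthetase-like protein. They were picked by gene symbol for their function: the prolyl hydroxylases *Egln1*, *Egln2* and *Egln3*, the asparaginyl hydroxylase *Hif1an*, the alpha subunits *Hif1a*, *Epas1* and *Hif3a*, and the target genes *Vegfa*, *Bnip3* and *Ankrd37*. They were proposed with results of the comparison between genotypes in view, so their differences between genotypes are given below as a description, with counts, levels and standard errors and with no p-value.

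Hypoxia-inducible factor (HIF) is a pair of an alpha subunit and the stable subunit ARNT. While oxygen is plentiful, the prolyl hydroxylases use oxygen and 2-oxoglutarate to hydroxylate prolines of the alpha subunit, which lets the VHL ubiquitin ligase bind it and send it to the proteasome, and the asparaginyl hydroxylase keeps co-activators away from what remains. When oxygen falls, the alpha subunit builds up and HIF turns on genes for glycolysis, vessel growth and mitophagy, as well as *Egln3* itself, and working skeletal muscle is a tissue in which oxygen supply and demand change widely. These control steps act on proteins, whereas the libraries measured RNA.

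The libraries came from muscle of male mice aged 6 weeks, labelled C57BL/6, on standard chow, 3 *Tarsl2*+/+ (wild-type) mice numbered 583, 584 and 595 and 3 *Tarsl2*-/- mice numbered 588, 589 and 591, 1 library per mouse. The *Tarsl2*-/- line carries a deletion of exon 3 made with a pair of guide RNAs and Cas9 in C57BL/6J zygotes, so exon 3 was missing in all cells and throughout development. Which muscle was taken, and whether the sequenced mice were littermates, is not given in the sources used here. Mouse 589 is titled KOT1-589, unlike KO1-588 and KO1-591, and the meaning of the added T is not given either. The question addressed by the comparison was how loss of *Tarsl2* changes gene expression in muscle.

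Each library held between 16176591 and 20123767 counts, so that 3 counts stood for 0.146 to 0.187 CPM (counts scaled to the library size) after scaling between libraries by the trimmed mean of log ratios (TMM). *Tarsl2* itself was at 24.4 to 32.1 CPM in *Tarsl2*+/+ and 1.80 to 2.23 CPM in *Tarsl2*-/- mice, and thus lower in every library labelled as deleted. The tissue was muscle by its markers, since 8 genes of muscle fibres together reached 30370 to 31880 CPM in *Tarsl2*+/+ and 34800 to 38440 CPM in *Tarsl2*-/- mice. These ranges did not overlap, and *Ckm* and *Des* were past the threshold for differing genes (an adjusted p under 0.05, edgeR), higher. Of the 8 genes, 6 had a positive log2 fold change. It was negative for *Mb* (-0.11, standard error 0.14) and *Chrna1* (-0.21, standard error 0.16). Most of the sum was *Acta1*, which overlapped between genotypes, at 20571.4 to 22342.1 CPM against 22315.1 to 26030.9 CPM. The sample records name a retinal extraction, whereas none of 8 retinal marker genes had more than 4 counts in any library, and 3 of the 8 had none at all. Summed levels of leukocyte and erythrocyte markers were lower in *Tarsl2*-/- mice without overlap, whereas those of adipocyte markers overlapped. The summed level of the 7 leukocyte markers tested (of 8 listed) was 935 to 1090 CPM in *Tarsl2*+/+ and 512 to 658 CPM in *Tarsl2*-/- mice, that of the 7 erythrocyte markers was 4749 to 10390 against 4167 to 4537 CPM, and that of the 6 adipocyte markers was highest in *Tarsl2*-/- mouse 589, at 3726 CPM against 1198 to 1927 CPM in the other mice. Most of that last sum was *Cfd*, at 2722 CPM in mouse 589. Of the 6 adipocyte markers 5 had a positive log2 fold change, but *Lep* went the other way (-1.01, standard error 0.32). It was at 10.8 CPM in mouse 589 against 8.13 to 23.5 CPM in *Tarsl2*+/+ mice. The leukocyte markers *Adgre1*, *Csf1r* and *Lyz2* were past the threshold, lower. Most of the leukocyte sum was *Lyz2*, at 823 to 965 CPM in *Tarsl2*+/+ and 436 to 567 CPM in *Tarsl2*-/- mice. All 7 leukocyte markers tested and all 7 erythrocyte markers had a negative log2 fold change, but 0 of the erythrocyte markers passed. The summed level of 8 slow fibre markers was 944 to 1635 CPM against 1265 to 1975 CPM and overlapped, although all 8 had a positive log2 fold change (median 0.41). That of the 9 fast fibre markers tested (of 10 listed) was 97910 to 106900 CPM against 101300 to 113300 CPM and overlapped as well. A positive log2 fold change was found for 7 of the 9, and *Myh1* and *Actn3* were past the threshold, higher. The change was negative for *Myh4* (-0.03, standard error 0.16) and *Pvalb* (-0.23, standard error 0.13). *Pvalb* was lower without overlap, at 29323.5 to 33246.7 CPM against 24550.8 to 29180.3 CPM, but short of the threshold. Because whole tissue was sequenced, fewer cells of a type and less RNA per cell cannot be told apart, and the part of cell composition in the results below was not tested.

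All 10 genes had enough counts to be tested. Of these, 8 had a positive log2 fold change (*Tarsl2*-/- over *Tarsl2*+/+), with a median of 0.28 over the 10, against a median of 0.0025 and 50.4% positive over all 15075 genes tested. The genotypes did not overlap in 6 of the 10 genes, namely the 4 hydroxylases, *Hif3a* and *Vegfa*, and in each of these the *Tarsl2*-/- mice were the higher ones. Of all genes tested, 12.6% were without overlap in the higher direction. *Egln3* was the only one of the 10 past the threshold, which was an adjusted p under 0.05 (edgeR, quasi-likelihood test, Benjamini-Hochberg correction over all genes tested), and it was higher. Of all genes tested, 0.896% were higher by that threshold and 1.37% lower. Since the 10 genes were chosen with this comparison known, nothing is read from these shares about the genes as a group. The plot of levels by mouse shows the spread behind each gene.

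**Figure D1:**
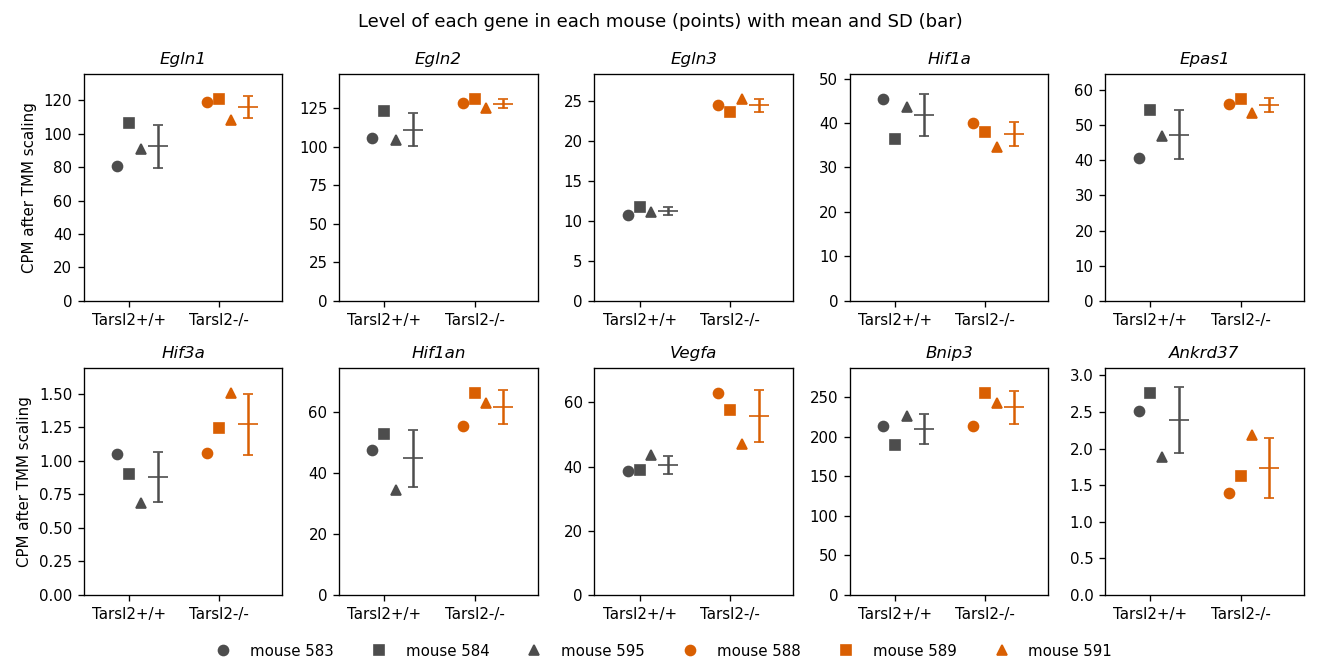
Level of each of the 10 genes in CPM after TMM scaling (vertical axes, each from 0) in each mouse, with the mean and SD of each genotype (n = 3) beside the points. *Egln3* lies between 10.8 and 11.8 CPM in the 3 *Tarsl2*+/+ mice (grey) and between 23.6 and 25.3 CPM in the 3 *Tarsl2*-/- mice (orange), while *Hif1a*, *Epas1*, *Bnip3* and *Ankrd37* overlap between genotypes.

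RNA levels of the prolyl hydroxylases did not overlap between genotypes, and *Egln3* was higher in *Tarsl2*-/- muscle by the widest margin. *Egln3* encodes PHD3, the prolyl hydroxylase whose RNA is itself strongly induced by HIF, and its gene is on chromosome 12 of GRCm38 (54178981 to 54203860, minus strand). It had 184, 222 and 213 counts in *Tarsl2*+/+ mice 583, 584 and 595 and 441, 379 and 521 counts in *Tarsl2*-/- mice 588, 589 and 591. After scaling these were 10.8, 11.8 and 11.2 CPM against 24.6, 23.6 and 25.3 CPM. The lowest *Tarsl2*-/- mouse was thus far above the highest *Tarsl2*+/+ mouse, and the mice of each genotype lay close together. The log2 fold change was 1.12 (standard error 0.097), or 2.18-fold. With 1 library removed at a time it was between 1.09 and 1.16 and past the threshold in all 6 of those fits. These fits reuse the libraries whose results were in view when the genes were chosen. They show only how far the value rests on single mice. Mouse 589, the one with the highest summed level of adipocyte markers, was close to the others of its genotype in *Egln3*. The part of adipocyte RNA in the level of *Egln3* was not tested.

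*Egln1* encodes PHD2, the main oxygen sensor for HIF in most tissues (chromosome 8, 124908587 to 124949324, minus strand). Its level was 80.7, 106 and 90.8 CPM in *Tarsl2*+/+ mice 583, 584 and 595 and 119, 121 and 108 CPM in *Tarsl2*-/- mice 588, 589 and 591. The gap between the genotypes was narrow, since *Tarsl2*+/+ mouse 584 was close to *Tarsl2*-/- mouse 591. Its log2 fold change was 0.32 (standard error 0.11), and it did not pass the threshold with all libraries but passed without mouse 584, at 0.44. Without mouse 583 it was 0.23 and did not pass. *Egln2* encodes PHD1 (chromosome 7, 27158658 to 27166802, minus strand). It was at 105, 123 and 104 CPM in *Tarsl2*+/+ and 128, 131 and 125 CPM in *Tarsl2*-/- mice, in the same mouse order. Here too mouse 584 was the highest *Tarsl2*+/+ mouse and came next to the lowest *Tarsl2*-/- mouse. For *Egln2* the log2 fold change was 0.21 (standard error 0.091), which did not pass the threshold with all libraries or with any of them left out.

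*Hif1an* encodes FIH, the asparaginyl hydroxylase of the alpha subunits (chromosome 19, 44562850 to 44576274, plus strand). Its level was 47.4, 52.6 and 34.4 CPM in *Tarsl2*+/+ mice 583, 584 and 595 and 55.6, 66.3 and 63.0 CPM in *Tarsl2*-/- mice 588, 589 and 591. The genotypes did not overlap, although mouse 584 and mouse 588 were close and mouse 595 lay well below its group. The log2 fold change was 0.46 (standard error 0.14). It did not pass the threshold with all libraries, but passed by DESeq2 (0.46) and without mouse 584 (0.59). Without mouse 595 it was 0.30 and did not pass.

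The promoters of these genes were searched for the core of the hypoxia response element, the DNA motif that HIF binds, as ACGTG or GCGTG on either strand, in windows from 250 bases before to 50 bases after the RefSeq start of each gene. The tables held a window for 9 of the 10 genes, 11 windows in all, and none for *Epas1*. ACGTG was found in 7 of the 9 genes and either form in 8, counting a gene if any of its windows held a match. For *Hif1a* and *Vegfa* the ACGTG lay in windows whose start was not a transcript start in GENCODE vM21. The shares that follow are per window, not per gene. Of 32851 windows of the same length over all genes, 19.6% held ACGTG, 32.4% GCGTG and 43.8% either, so single matches are common, and 7.15% held CACGTG, an E-box that contains ACGTG on both strands and that other factors also bind. The sequences of the 3 prolyl hydroxylases are shown because they are a family of which *Egln3* alone passed the threshold, with ACGTG in capitals, on the gene's strand and in GRCm38.p6. That of *Egln3* covers the whole 250 bases before the start, and its only match begins 229 bases before it. Those of *Egln1* and *Egln2* are 45 bases around the matches that begin 68 and 48 bases before their starts.
*Egln3*, chr12:54203875-54204124, minus strand: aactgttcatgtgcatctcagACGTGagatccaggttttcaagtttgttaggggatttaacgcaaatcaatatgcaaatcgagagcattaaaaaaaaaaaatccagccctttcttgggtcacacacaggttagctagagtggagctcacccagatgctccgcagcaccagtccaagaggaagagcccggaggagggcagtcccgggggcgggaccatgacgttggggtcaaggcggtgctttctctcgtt
*Egln1*, chr8:124949298-124949342, minus strand: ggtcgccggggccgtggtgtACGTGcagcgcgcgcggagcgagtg
*Egln2*, chr7:27166826-27166870, minus strand: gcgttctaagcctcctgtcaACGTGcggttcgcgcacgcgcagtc
The window of *Egln1* also held GCGTG, beginning 126 bases before its start, and that of *Egln2* held a CACGTG across its start and GCGTG at 151, 137 and 34 bases before it, the last on the opposite strand and within the bases shown. A second window of *Egln2*, whose start was not a transcript start in GENCODE vM21, held GCGTG as well. The window of *Hif1an* held neither form. A match in these letters says nothing about whether HIF was bound in these muscles. Sequence outside the windows was not searched, so a window without a match does not show that a gene lacks a hypoxia response element. Nor does a match mark the element through which HIF acts on the gene.

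**Figure D2:**
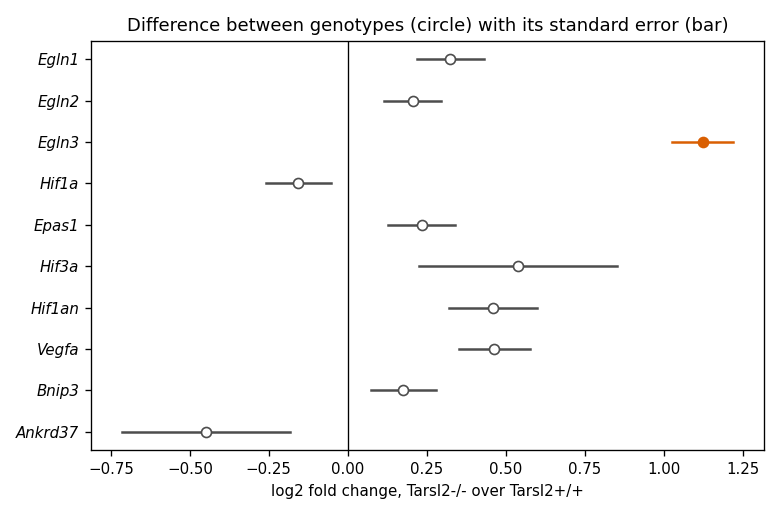
Log2 fold change (*Tarsl2*-/- over *Tarsl2*+/+, horizontal axis) of each of the 10 genes, with a bar of 1 standard error to each side. *Egln3* (filled) is at 1.12 and past the threshold, and the other 9 genes (open) lie between -0.45 and 0.54.

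None of the alpha subunits passed the threshold. *Hif1a* encodes HIF-1 alpha, the subunit found in nearly all cells (chromosome 12, 73901375 to 73947530, plus strand). It was at 45.4, 36.4 and 43.6 CPM in *Tarsl2*+/+ mice 583, 584 and 595 and 40.0, 37.9 and 34.7 CPM in *Tarsl2*-/- mice 588, 589 and 591. The genotypes overlapped, since mouse 584 was below 2 of the 3 *Tarsl2*-/- mice, and the log2 fold change was -0.16 (standard error 0.10). It went from -0.10 without mouse 583 to -0.25 without mouse 584. Its annotated antisense gene *Gm15283* had at most 8 counts in any library. *Epas1* encodes HIF-2 alpha, which is abundant in endothelial cells (chromosome 17, 86753907 to 86833410, plus strand). It was at 40.6, 54.3 and 46.7 CPM in *Tarsl2*+/+ and 56.0, 57.4 and 53.5 CPM in *Tarsl2*-/- mice. The overlap rested on mouse 584 alone, which was above mouse 591. For *Epas1* the log2 fold change was 0.23 (standard error 0.11), from 0.13 without mouse 583 to 0.35 without mouse 584.

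*Hif3a* encodes HIF-3 alpha, some forms of which oppose the other alpha subunits (chromosome 7, 17031507 to 17062427, minus strand). It was scarce, with 18, 17 and 13 counts in *Tarsl2*+/+ mice 583, 584 and 595 and 19, 20 and 31 counts in *Tarsl2*-/- mice 588, 589 and 591. These were 1.05, 0.90 and 0.68 CPM against 1.06, 1.25 and 1.51 CPM. The groups did not overlap, but mouse 583 and mouse 588 were 1 count apart. The log2 fold change of 0.54 had a standard error of 0.31, the largest of the 10 genes, and a difference of that size did not pass the threshold at this depth. It was between 0.38 and 0.68 with 1 library removed at a time.

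The *Hif1a* window in RefSeq held 2 places with ACGTG, 1 of them within CACGTG. The 45 bases around the latter are shown in capitals at the motif because it is the only E-box among the alpha subunits with a window.
*Hif1a*, chr12:73907712-73907756, plus strand: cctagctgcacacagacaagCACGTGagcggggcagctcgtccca
The start of this window was not a transcript start in GENCODE vM21. The *Hif3a* window held GCGTG but not ACGTG.

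None of the 3 target genes passed the threshold with all libraries, and 2 of them had a positive log2 fold change. *Vegfa* encodes the vascular endothelial growth factor, the classical HIF target in vessel growth (chromosome 17, 46016993 to 46032369, minus strand). It was at 38.6, 38.9 and 43.6 CPM in *Tarsl2*+/+ mice 583, 584 and 595 and 62.9, 57.4 and 46.9 CPM in *Tarsl2*-/- mice 588, 589 and 591. All *Tarsl2*-/- mice were above all *Tarsl2*+/+ mice, with mouse 591 well below the others of its genotype. The log2 fold change was 0.46 (standard error 0.11), and it did not pass the threshold with all libraries. It passed by DESeq2 (0.47) and without mouse 591 (0.57). The summed level of 10 endothelial markers was 222 to 245 CPM in *Tarsl2*+/+ and 186 to 232 CPM in *Tarsl2*-/- mice. Of these markers 8 of 10 had a negative log2 fold change, and *Cdh5*, the cadherin of endothelial junctions, was lower (-0.64, standard error 0.097, adjusted p = 0.00929, edgeR). As a list the endothelial markers were thus not higher in *Tarsl2*-/- muscle.

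*Bnip3* encodes a mitochondrial receptor for mitophagy (chromosome 7, 138890836 to 138909519, minus strand). It was at 214, 190 and 227 CPM in *Tarsl2*+/+ mice 583, 584 and 595 and 214, 256 and 243 CPM in *Tarsl2*-/- mice 588, 589 and 591. The genotypes overlapped through mouse 588, which was level with mouse 583. *Bnip3* had a log2 fold change of 0.18 (standard error 0.10), from 0.11 without mouse 584 to 0.25 without mouse 588. *Ankrd37* encodes an ankyrin repeat protein (chromosome 8, 45996902 to 46005707, minus strand). It had 43, 52 and 36 counts in *Tarsl2*+/+ and 25, 26 and 45 counts in *Tarsl2*-/- mice, or 2.51, 2.76 and 1.89 CPM against 1.39, 1.62 and 2.19 CPM. Mouse 595 and mouse 591 crossed the groups, and the log2 fold change of *Ankrd37* was -0.45 (standard error 0.27), between -0.67 and -0.31 with 1 library removed at a time. *Ankrd37* shares 6405 bases with *Lrp2bp* on the other strand, which had 97 to 159 counts, and the use of strand in the counting is not given in the sources used here, so that its low counts are uncertain.

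The promoter matches of *Bnip3* and *Ankrd37* are shown because these targets carried ACGTG without a clear difference in RNA. In *Bnip3* it lies within CACGTG, which begins 108 bases before the start, and in *Ankrd37* the first of its 2 matches begins 241 bases before the start. The *Ankrd37* window held a transcript start of GENCODE vM21, but it lies inside the annotated gene (45996902 to 46005707, minus strand) and not at its outer end. In capitals are CACGTG and ACGTG, in GRCm38.p6 and on the gene's strand.
*Bnip3*, chr7:138909590-138909634, minus strand: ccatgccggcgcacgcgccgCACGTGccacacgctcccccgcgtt
*Ankrd37*, chr8:46000067-46000100, minus strand: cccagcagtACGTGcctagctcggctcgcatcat
Of the 2 windows of *Vegfa*, the first held neither form of the motif, and the second, whose start was not a transcript start in GENCODE vM21, held GCGTG 218 and ACGTG 211 bases before that start. Sequence of *Vegfa* beyond these windows was not searched.

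Levels of different genes were compared per length, as CPM per kilobase of the exon length in the count table. In *Tarsl2*+/+ muscle *Bnip3* was highest by this measure, at 92.8 ± 8.39 (SD, n = 3), followed by *Egln2* at 39.6 ± 3.84 and *Egln1* at 25.8 ± 3.57. *Vegfa* at 9.42 ± 0.645, *Epas1* at 8.90 ± 1.29, *Hif1a* at 7.09 ± 0.811 and *Hif1an* at 6.78 ± 1.42 came next. Each of these 4 overlapped with its neighbour in this order, so that their order was not resolved. Below them were *Egln3* at 4.22 ± 0.196, *Ankrd37* at 1.55 ± 0.292 and *Hif3a* at 0.131 ± 0.028. In *Tarsl2*-/- muscle *Egln3* was at 9.21 ± 0.316 CPM per kilobase, between *Hif1an* at 9.33 ± 0.831 and *Hif1a* at 6.37 ± 0.460. It overlapped with *Hif1an* and was above *Hif1a* in every mouse, whereas in *Tarsl2*+/+ muscle it was below both.

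**Figure D3:**
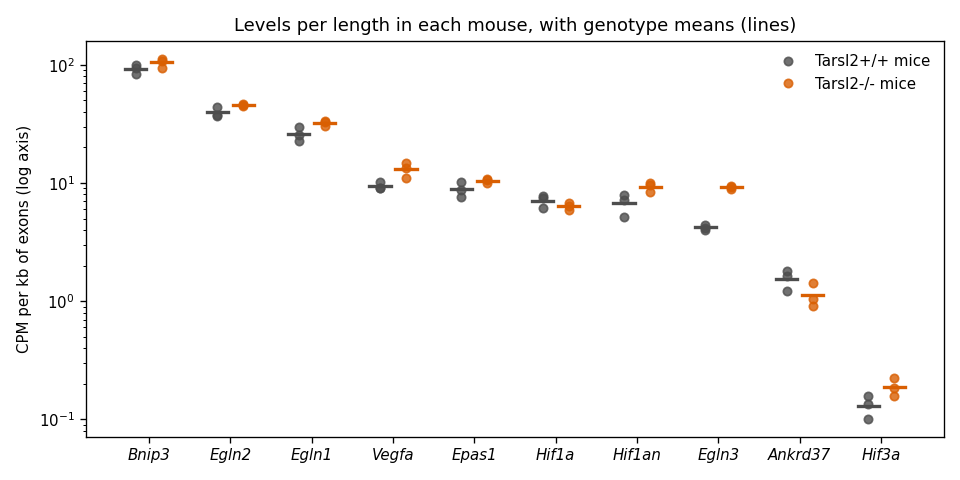
Level of each gene in CPM per kilobase of exons (vertical log axis) in each mouse (points) with the mean of each genotype (lines), in the order of the *Tarsl2*+/+ means. *Egln3* is at 4.22 in *Tarsl2*+/+ and 9.21 in *Tarsl2*-/- muscle, and *Bnip3* and *Hif3a* mark the ends of the order in both genotypes.

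Within the prolyl hydroxylases, *Egln3* was the minor form at the RNA level, and its share was higher in *Tarsl2*-/- muscle. It made up 6.31%, 5.68% and 6.30% of the summed level per length of *Egln1*, *Egln2* and *Egln3* in *Tarsl2*+/+ mice 583, 584 and 595. In *Tarsl2*-/- mice 588, 589 and 591 it made up 10.5%, 9.95% and 11.3%. The share of *Egln2* was 57.0% ± 1.49 (SD, n = 3) in *Tarsl2*+/+ and 52.4% ± 0.495 in *Tarsl2*-/- muscle, whereas that of *Egln1* was 37.0% in both. Per length *Egln2* and *Egln1* thus made up most of the prolyl hydroxylase RNA in either genotype. The summed level of the 3 genes was 69.6 ± 7.41 CPM per kilobase in *Tarsl2*+/+ and 87.1 ± 2.62 in *Tarsl2*-/- muscle (SD, n = 3). Of the alpha subunits, *Epas1* made up 55.1% ± 6.34 and *Hif1a* 44.1% ± 6.27 in *Tarsl2*+/+ muscle, against 61.5% ± 1.08 and 37.4% ± 1.30 in *Tarsl2*-/- muscle (SD, n = 3). These shares overlapped between genotypes, because mouse 584 had 37.3% for *Hif1a*, within the range of the *Tarsl2*-/- mice, and *Hif3a* made up at most 1.39% of the sum in any mouse. The summed level of the alpha subunits was 16.1 ± 0.538 CPM per kilobase in *Tarsl2*+/+ and 17.0 ± 0.744 in *Tarsl2*-/- muscle. Whether *Epas1* or *Hif1a* had the larger share in *Tarsl2*+/+ muscle depended on the length used, as given below.

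The genes whose log2 CPM followed that of *Egln3* most closely over the 6 libraries were *Gstm5* (Pearson r = 0.997), *Aqp4* (0.995), *Zfp251* (0.995), *Snai3* (0.991) and *Tbrg4* (0.991), out of 12448 genes whose log2 CPM averaged 1 or more. *Gstm5* encodes a glutathione transferase, *Aqp4* the water channel of fast muscle fibres and *Snai3* a zinc finger repressor. Among the other 9 genes of the group, *Vegfa* (r = 0.840) was nearest to *Egln3* and *Bnip3* (r = 0.593) the farthest of those with a positive r, while *Hif1a* (-0.606) and *Ankrd37* (-0.652) went the other way. These values are a description over 6 libraries that fall into 2 genotypes, so that any gene that differed between genotypes scores high.

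The rest of the pathway was examined in 5 lists of genes written from general knowledge of the hypoxia response. Of all genes tested, 2.27% passed the threshold in either direction. The first list held ARNT, the VHL ligase and other partners and regulators of HIF turnover. Of 21 genes, all tested, 9 had a positive and 12 a negative log2 fold change, with a median of -0.04, and in the edgeR test 0 passed, as by DESeq2 and limma-voom, while 5 had an unadjusted p under 0.05, as did 19.8% of all genes tested. *Arnt* itself was at 36.1 to 36.6 CPM in *Tarsl2*+/+ and 37.2 to 39.8 CPM in *Tarsl2*-/- mice, a log2 fold change of 0.08 (standard error 0.081). *Vhl*, the subunit of the ligase that binds hydroxylated HIF, was at 16.3 to 18.5 against 15.1 to 18.6 CPM, a log2 fold change of -0.02 (standard error 0.11). Both were named after their values were seen, for their roles. The widest difference was that of *Arnt2*, a relative of ARNT known from neurons, at 0.63 to 1.23 CPM against 0.45 to 0.68 CPM (-0.79, standard error 0.38), and it overlapped between genotypes.

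Hypoxia-inducible glycolytic genes and genes of angiogenic signalling outside the 10 were spread over both directions. The angiogenic list was not limited to HIF targets. Of the 20 glycolytic targets, 19 were tested, of which 9 were positive and 10 negative, with a median of -0.01. In the edgeR test 0 passed, as by DESeq2 and limma-voom, and 4 had an unadjusted p under 0.05. The widest difference here belonged to *Gapdh*, at 39.8, 543 and 506 CPM in *Tarsl2*+/+ mice 583, 584 and 595 and 410, 192 and 11.8 CPM in *Tarsl2*-/- mice 588, 589 and 591. Its spread within each genotype was far wider than the difference between them (-0.83, standard error 0.95). The cause of this spread between libraries was not tested, and the values of *Gapdh* are uncertain. Of the 21 genes of angiogenic signalling, 20 were tested and the erythropoietin gene *Epo* had no count in any library. The tested genes had a median of -0.07, with 9 positive and 11 negative. In the edgeR test 0 of these passed and 6 had an unadjusted p under 0.05, and limma-voom gave 0 and DESeq2 1, *Vegfb*, a relative of *Vegfa*. *Vegfb* was at 68.7 to 86.3 CPM in *Tarsl2*+/+ and 100 to 106 CPM in *Tarsl2*-/- mice (0.39, standard error 0.098). *Edn1*, the vasoconstrictor endothelin, had the widest difference, at 2.92 to 4.20 against 1.81 to 2.68 CPM (-0.73, standard error 0.23), without overlap and short of the threshold (adjusted p = 0.117, edgeR).

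Among 35 other hypoxia-inducible genes, 34 were tested, 19 positive and 15 negative, with a median of 0.04. *Angptl4*, a secreted inhibitor of lipoprotein lipase that is induced by HIF and also by fasting and PPAR factors, was the 1 gene that passed, and it rose. It was at 20.4, 16.5 and 10.8 CPM in *Tarsl2*+/+ mice 583, 584 and 595 and 29.8, 47.9 and 29.1 CPM in *Tarsl2*-/- mice 588, 589 and 591. The genotypes did not overlap, and mouse 589, which also had the highest summed level of adipocyte markers, was far above the others. For *Angptl4* the log2 fold change was 1.16 (standard error 0.23, adjusted p = 0.0268, edgeR). It did not pass without mouse 595 (0.94, adjusted p = 0.0777, edgeR) or without mouse 589 (0.90, adjusted p = 0.0712, edgeR), and the part of adipocyte RNA in it was not tested. *Stc2*, the widest of those that did not pass, was at 3.78 to 5.68 CPM in *Tarsl2*+/+ and 5.52 to 7.58 CPM in *Tarsl2*-/- mice (0.48, standard error 0.19).

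**Figure D4:**
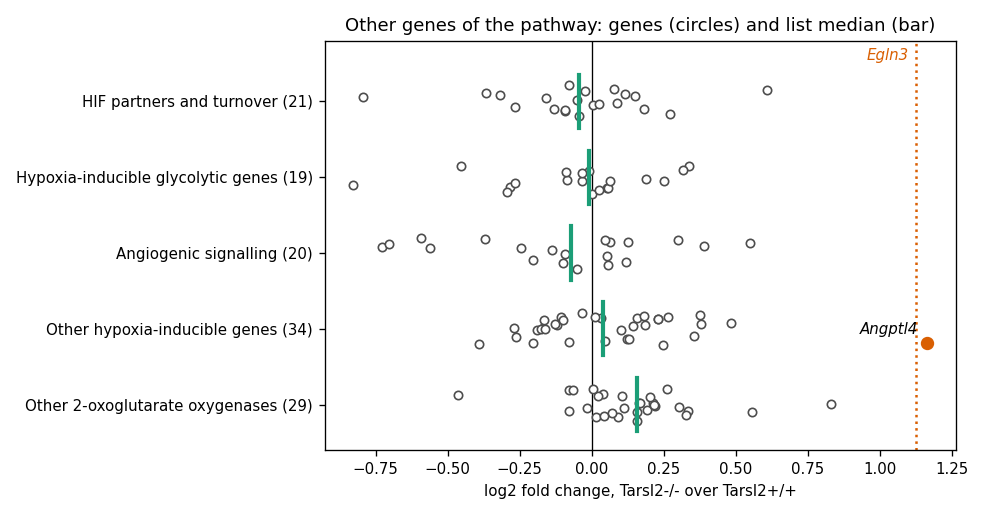
Log2 fold change (*Tarsl2*-/- over *Tarsl2*+/+, horizontal axis) of every tested gene in the 5 lists (circles, with the number tested in parentheses) and the median of each list (green bar). *Angptl4* (filled) is past the threshold, at 1.16, the dotted line marks *Egln3* at 1.12, and the medians lie between -0.07 and 0.16.

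The last list held 30 other oxygenases that, like the HIF hydroxylases, use oxygen and 2-oxoglutarate, such as collagen hydroxylases, histone demethylases and TET enzymes. Of 29 tested, 24 had a positive and 5 a negative log2 fold change, and the median was 0.16. In the edgeR test 0 passed, as by DESeq2 and limma-voom, and 7 had an unadjusted p under 0.05. In 8 of the 29 the genotypes did not overlap, all higher in *Tarsl2*-/- muscle, where 12.6% of all genes tested did so. In the lists above, 4 of 21 partners, 1 of 19 glycolytic, 3 of 20 angiogenic and 7 of 34 other hypoxia-inducible genes were higher without overlap. Lower without overlap were 1, 2, 3 and 2 genes in the same order, against 12% of all genes tested. The widest difference was that of *P4ha3*, a collagen prolyl hydroxylase subunit with 11 to 34 counts a library, at 0.58 to 1.11 CPM in *Tarsl2*+/+ and 1.34 to 1.65 CPM in *Tarsl2*-/- mice (0.83, standard error 0.32, adjusted p = 0.177, edgeR). Whether this list differed from other genes was not tested.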

How the data were processed

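Muscle RNA of 3 *Tarsl2*+/+ and 3 *Tarsl2*-/- mice was sequenced from stranded, poly(A)-selected libraries. Mapping to mm10 with HISAT2 was done by the authors, who deposited counts of reads per gene, with no normalization. The counting tool, its annotation and its use of strand are not given in the sources used here. The submitters' processing notes name Bowtie 0.12.2 and mm8, but coordinates of the table were those of GENCODE vM21 on GRCm38 (mm10) for all of the 10 genes except *Epas1*. Library totals were 16176591 to 20123767 counts; 448 rows of 53084 name no annotated gene.

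Genes were filtered with filterByExpr (minimum count 10, minimum total 15), scaled by TMM and compared by the quasi-likelihood test of edgeR 4.0.16 in R 4.3.3, with genotype as sole factor, Benjamini-Hochberg adjustment over 15075 genes and a threshold of 0.05. The standard error is the size of the log2 fold change over the square root of F. The common biological coefficient of variation was 12.1%. Labels name mice by number, and p-values set the difference between genotypes against the spread among libraries of the same genotype. Same-genotype libraries differed by more than sampling noise (chi-square per gene at least 12.9). The procedure was tested on simulated data.

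The 10 genes and the gene lists were chosen with earlier results of these data known. Named are the 10 genes, *Tarsl2*, every gene of the 5 pathway lists past the threshold, the widest difference short of it in each list, and the 5 genes most like *Egln3*. *Arnt*, *Vhl*, *Vegfb* and the cell type markers named were added after their values were seen. Promoter sequences and positions are RefSeq's, on GRCm38.p6. Alternatives were DESeq2 1.42.0, limma-voom 3.58.1, other scalings, other filters and each library left out.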

Additional observations from a re-analysis of the deposited data

How the results depend on the processing

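In all 12 alternatives the 10 genes kept the sign of their log2 fold change and *Egln3* stayed past the threshold. The number of the 10 genes past it was 3 by DESeq2 (*Egln3*, *Hif1an*, *Vegfa*), 4 with every gene kept that had 1 count or more anywhere (*Egln1* as well), and between 1 and 3 with 1 library removed at a time, with 3 without mouse 584 (*Egln1*, *Egln3*, *Hif1an*) and 2 without mouse 591 (*Egln3*, *Vegfa*). *Egln1*, *Hif1an* and *Vegfa* thus lay near the threshold.

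Over all genes, 342 passed, against 671 by DESeq2, 1437 with the 1-count filter, and 81 (without mouse 583) to 625 (without mouse 584) with 1 library removed. With the 1-count filter, 3 genes of HIF partners and turnover, 2 glycolytic targets, 4 genes of angiogenic signalling, 4 other hypoxia-inducible genes and 1 other oxygenase passed. DESeq2 called 1 gene of angiogenic signalling and 3 other hypoxia-inducible genes (*Angptl4*, *Mxi1*, *P4ha1*, the last lower), and upper quartile scaling 2 of the latter (*Angptl4*, *P4ha1*). With 1 library removed, 0 to 1 angiogenic genes passed (*Flt1* without mouse 584), 0 to 2 other hypoxia-inducible genes (0 without mouse 595 or mouse 589) and 0 to 1 other oxygenases (*Kdm6a* without mouse 584). The cause of these changes was not tested. With the length of the longest transcript in place of the table's length, the share of *Egln3* among the prolyl hydroxylases was 5.13% in *Tarsl2*+/+ and 9.03% in *Tarsl2*-/- muscle, and *Hif1a* came before *Epas1* in the *Tarsl2*+/+ order. Of the alpha subunits, *Hif1a* then made up 50.5% and *Epas1* 48.7% in *Tarsl2*+/+ muscle, against 43.6% and 55.3% in *Tarsl2*-/- muscle.

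No analysis paired by litter was possible because the litters of the sequenced mice are not given in the sources used here. With 3 mice a genotype, *Hif3a* and *Ankrd37*, at 13 to 52 counts a library, had the largest standard errors (0.31 and 0.27), and log2 fold changes of 0.54 and -0.45 did not pass for them. RNA levels say nothing of hydroxylase activity or HIF protein, which were not analysed here.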
